A study of Mus musculus with 4 samples.

Results

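The genes described here encode the mitogen-activated protein (MAP) kinase cascade and the dual-specificity phosphatases (DUSPs). A gene was a member when its symbol began with Mapk, Map2k, Map3k or Map4k and a number, with Dusp and a number, or with Mapkapk or Rps6ka, and pseudogenes were left out. The rule found 83 of the 46603 genes in the count table, of which 67 had enough reads to be among the 13001 genes tested. RNA sequencing was done on total RNA of whole liver from 4 male mice of the C57BL/6 J background, all homozygous for a loxP-flanked HuR allele (HuR flox/flox). The 2 mice labelled HuR hKO (mice 3 and 4) received an adeno-associated virus, AAV8, carrying Cre recombinase under the thyroxine-binding globulin promoter (TBGP), which directs Cre to hepatocytes, and the 2 control mice (mice 1 and 2) received AAV8-TBGP-GFP. Both groups were fed a Western diet with 42% of its calories from fat and 0.1% cholesterol, together with drinking water holding 23.1 g/L fructose and 18.9 g/L glucose, for 4 weeks. The labels describe the groups as matched for age and do not give the age. Other liver cells keep an intact HuR gene in this model, and no liver on normal diet was part of the comparison.

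HuR is an RNA-binding protein that attaches to AU-rich stretches, mostly in 3′ untranslated regions (UTRs), and is known for changing the stability and translation of the messages it binds. In the MAP kinase cascade a MAP4K or a small GTPase activates a MAP3K, the MAP3K phosphorylates a MAP2K, and the MAP2K phosphorylates a MAP kinase on a threonine and a tyrosine. The ERK branch is known for growth factor signals, the JNK and p38 branches for stress, cytokine and lipid signals, and ERK5 for both. MAP kinases activate further kinases of the RSK, MSK and MK families, scaffold proteins such as the JIPs hold kinases of one branch together, and the DUSPs of the MAP kinase phosphatase group remove both phosphates. In liver, JNK and p38 activity is known for its part in steatosis, inflammation and insulin signalling. The counts measure messenger RNA only, so phosphorylation, which sets the activity of these kinases, was not measured.

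Elavl1, the gene that encodes HuR (GRCm38 chromosome 8, 4285382 to 4325413, minus strand), had 377 and 347 counts in control mice 1 and 2, against 541 and 648 in mice 3 and 4, the libraries labelled HuR hKO. These are 28.4 and 25.9 CPM against 37.7 and 34.4 CPM, where CPM are counts scaled to 1000000 counts of effective library size. The targeted gene was therefore higher in the libraries labelled HuR hKO, by 0.41 on the log2 scale (SE 0.135, unadjusted p = 0.0160 and adjusted p = 0.545 in edgeR's quasi-likelihood test). Elavl1 overlaps the annotated gene Ccl25. The count covers the whole gene, and whether reads fell in the part between the loxP sites cannot be read from it. Because this goes against the label, the groups are called by their labels throughout, and every direction given below is that of the libraries labelled HuR hKO relative to the control libraries.

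The libraries held 13032095 to 19715577 counts in genes, and the deepest was mouse 4. A gene with 0 counts could still have a level of up to 0.159 to 0.226 CPM, depending on the library (the level of 3 counts). Hepatocyte markers were high in all 4 livers: Alb, which encodes albumin, was at 40983 to 45366 CPM, and 0 of 10 markers on the hepatocyte list had an unadjusted p under 0.05. Among lists for other cells, the summed level of 6 red cell genes was 363 and 450 CPM in control livers and 488 and 711 CPM in the others, with 3 of 5 tested genes higher at an unadjusted p under 0.05. Of 8 stellate cell markers, whose summed level was 193 and 195 against 209 and 266 CPM, 2 were higher (Col1a1 and Col3a1), 1 monocyte and macrophage marker of 6 tested was higher (Trem2), and 1 cholangiocyte marker of 5 tested was higher (Spp1). Trem2 was near the floor, with 4 and 2 counts in controls and 12 and 15 in the others. Of the 6 tested monocyte and macrophage markers, 5 had fitted values above 0 and 1 below 0 (Ccr2, -0.18). Of the tested cholangiocyte markers, 2 had fitted values above and 3 below 0, at a median log2 fold change of -0.56. The lowest was that of the keratin Krt19 (-2.38), which was at 12.2 CPM in control mouse 1 and at 0.373 to 1.81 CPM in the other 3 livers. All 8 endothelial markers had fitted values above 0 (median log2 fold change 0.22), 4 of them with groups that did not overlap and 0 with an unadjusted p under 0.05. Groups also did not overlap for 4 of 8 Kupffer cell markers, all higher, and 40% of 10 hepatocyte markers (1 higher, 3 lower). Of the 8 Kupffer cell markers, 6 had fitted values above 0 and 2 below 0, at a median log2 fold change of 0.15. Those below were Marco (-0.92) and Adgre1 (-0.20). Over all tested genes 38.1% had groups that did not overlap, and 7.43% had an unadjusted p under 0.05 in edgeR. Granulocyte and T cell genes were low, with S100a8 at 0.0747 to 0.265 CPM and Cd3e at 0.301 to 0.796 CPM. The neutrophil gene Csf3r was at 1.51 and 1.64 CPM in controls and 0.837 and 1.06 CPM in the others. These 2 lists had 1 tested gene each, Csf3r with a fitted value of -0.71 and Cd3e with 1.19. Neither had an unadjusted p under 0.05 in edgeR. The part of these differences in the values below was not tested, and in whole liver fewer cells of a type and less RNA per cell cannot be told apart.

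AU-rich sites in the 3′ UTRs are shown because they are the kind of sequence that HuR is known to bind. The 7 letters TATTTAT were searched on the message strand in the longest annotated 3′ UTR of each gene (GENCODE M21, GRCm38), which 82 of 83 members have, and overlapping matches were counted apart. Dusp1, whose message is a classical AU-rich one, holds 3 matches in 690 bases, and among the core kinases of the cascade Map2k1, Map2k7, Map3k7 and Map4k4 hold 1 each. They are written 5′ to 3′ with 8 bases on each side and the motif in capitals. Dusp1 lies on the minus strand, with its sites at chr17:26506162-26506184, chr17:26505873-26505895 and chr17:26505677-26505699. The others lie at chr9:64186048-64186070 (Map2k1, minus strand), chr8:4246114-4246136 (Map2k7, plus strand), chr4:32020717-32020739 (Map3k7, plus strand) and chr1:40025293-40025315 (Map4k4, plus strand).
Dusp1 site 1: ctggtcctTATTTATttaacacc
Dusp1 site 2: tttaccttTATTTATttttgtgt
Dusp1 site 3: tgtttgttTATTTATgatctgaa
Map2k1: tatttctaTATTTATttttaaat
Map2k7: agactcgcTATTTATtcaatcat
Map3k7: aaagagaaTATTTATattgttaa
Map4k4: gaagttaaTATTTATaaaatgtg
The motif was present in 22 of 82 members (26.8%). Among tested genes with an annotated 3′ UTR it was present in 19 of 66 members (28.8%) and in 29.8% of all 11943. Among tested members it occurred 0.248 times per kilobase of 3′ UTR, and 0.283 times per kilobase over all tested genes. A match describes the letters and is not a measured HuR site.

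Across the whole family the difference between groups was small. Of the 67 tested members, 35 had a fitted value above and 32 below control, and their median log2 fold change was 0.01, beside 0.00 over all genes tested. With no scaling for library size, which moved the median of all genes to 0.31, 60 members lay above and 7 below control. The median absolute log2 fold change was 0.12 for the members and 0.16 for all genes. In edgeR's quasi-likelihood test 2 members (2.99%) had an unadjusted p under 0.05, both lower in the libraries labelled HuR hKO, while 7.43% of all tested genes passed that threshold 3.39% as lower and 4.04% as higher genes. The members' share was not above that background. With no scaling for library size 2 other members passed in edgeR, Map3k10 and Map4k4, both higher, beside 10.7% of all genes. After Benjamini-Hochberg adjustment over all 13001 genes 0 members had an adjusted p under 0.05, beside 0.0231% of all genes, and DESeq2, edgeR's exact test and limma-voom also gave 0 members. A fold of at least 1.8 was fitted for 2 members (3.79% of all genes), and 0 members reached that fold together with an unadjusted p under 0.05 (2.12% of all genes). The range of both control livers lay apart from that of the other livers for 18 members (26.9%), 7 higher and 11 lower, while this held for 38.1% of all tested genes.

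**Figure D1:**
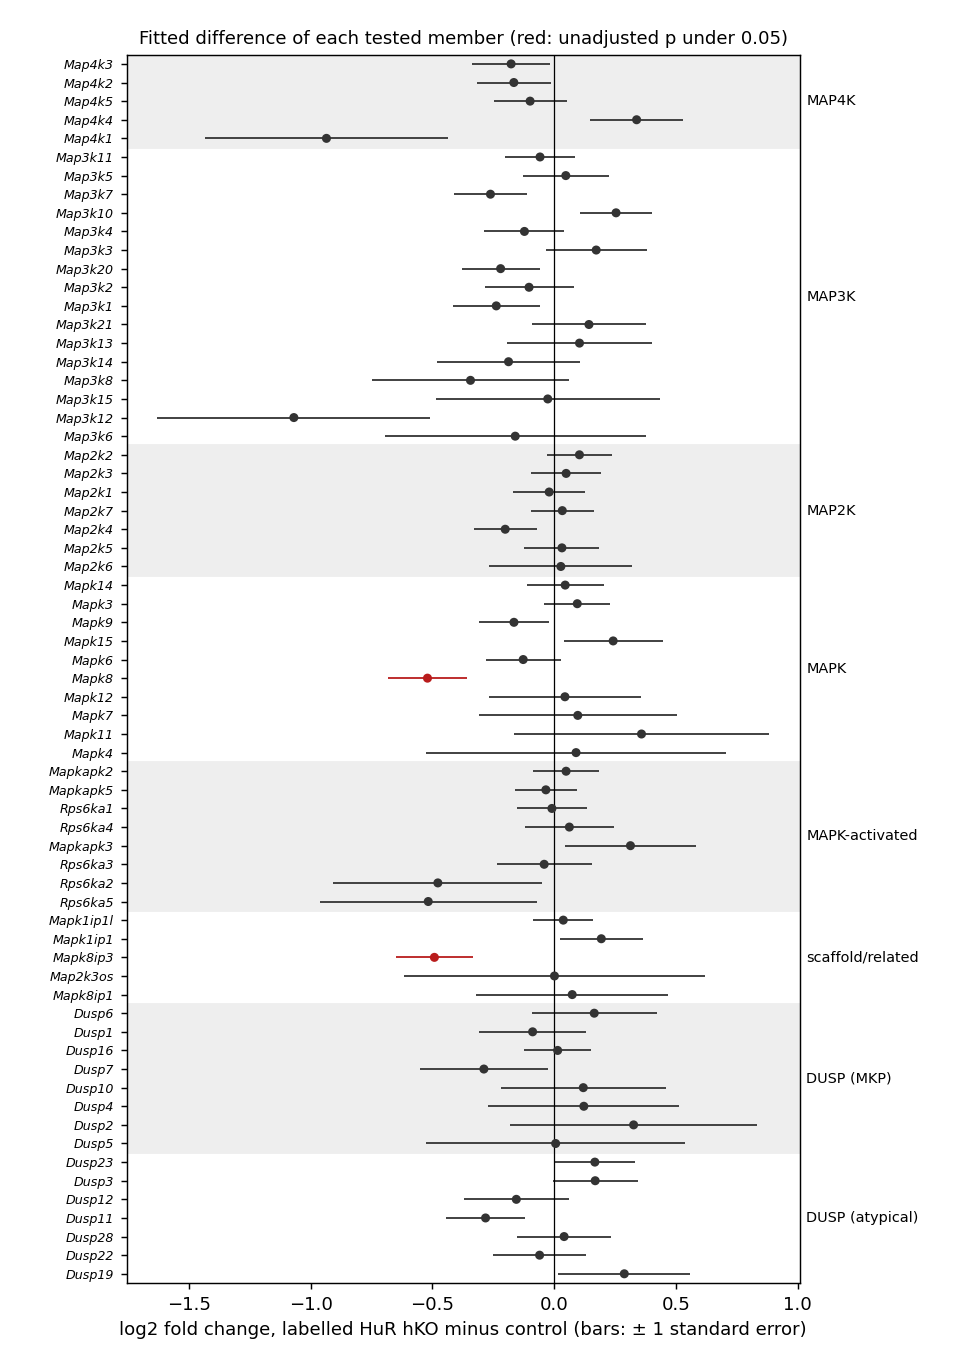
Fitted log2 fold change (libraries labelled HuR hKO minus control, horizontal axis) of 66 of the 67 tested members with bars of 1 standard error, ordered by tier and by level per length within the tier. Most points lie near 0, Mapk8 (-0.52) and Mapk8ip3 (-0.49) are drawn in red for an unadjusted p under 0.05, and Map3k12 (-1.07) and Map4k1 (-0.93) lie farthest to the left with wide bars.

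The tiers differed widely in level. Compared per kilobase of the longest protein-coding transcript, the highest level was that of Map2k2 (MEK2, an ERK activator) at 66.9 ± 4.6 CPM per kilobase (SD, n = 4). It was followed by Map2k3 (MKK3, a p38 activator) at 38.4 ± 3.5, the p38 alpha gene Mapk14 at 24.3 ± 2.8, its substrate kinase Mapkapk2 (MK2) at 23.1 ± 1.6 and Mapk3 (ERK1) at 21.6 ± 1.5 CPM per kilobase. The ranges of the last 3 over the livers overlapped and give no order, while Map2k2 was above every other member in each liver. MAP3Ks and MAP4Ks were lower: the highest were Map3k11 (MLK3) at 11.2 ± 0.97 and Map4k3 (GLK) at 5.07 ± 0.66 CPM per kilobase. Among phosphatases Dusp6, which acts on ERK in the cytoplasm, was at 14.4 ± 3.6, the small atypical phosphatase Dusp23 at 14.0 ± 1.7, and Dusp1 at 11.2 ± 2.3 CPM per kilobase.

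**Figure D2:**
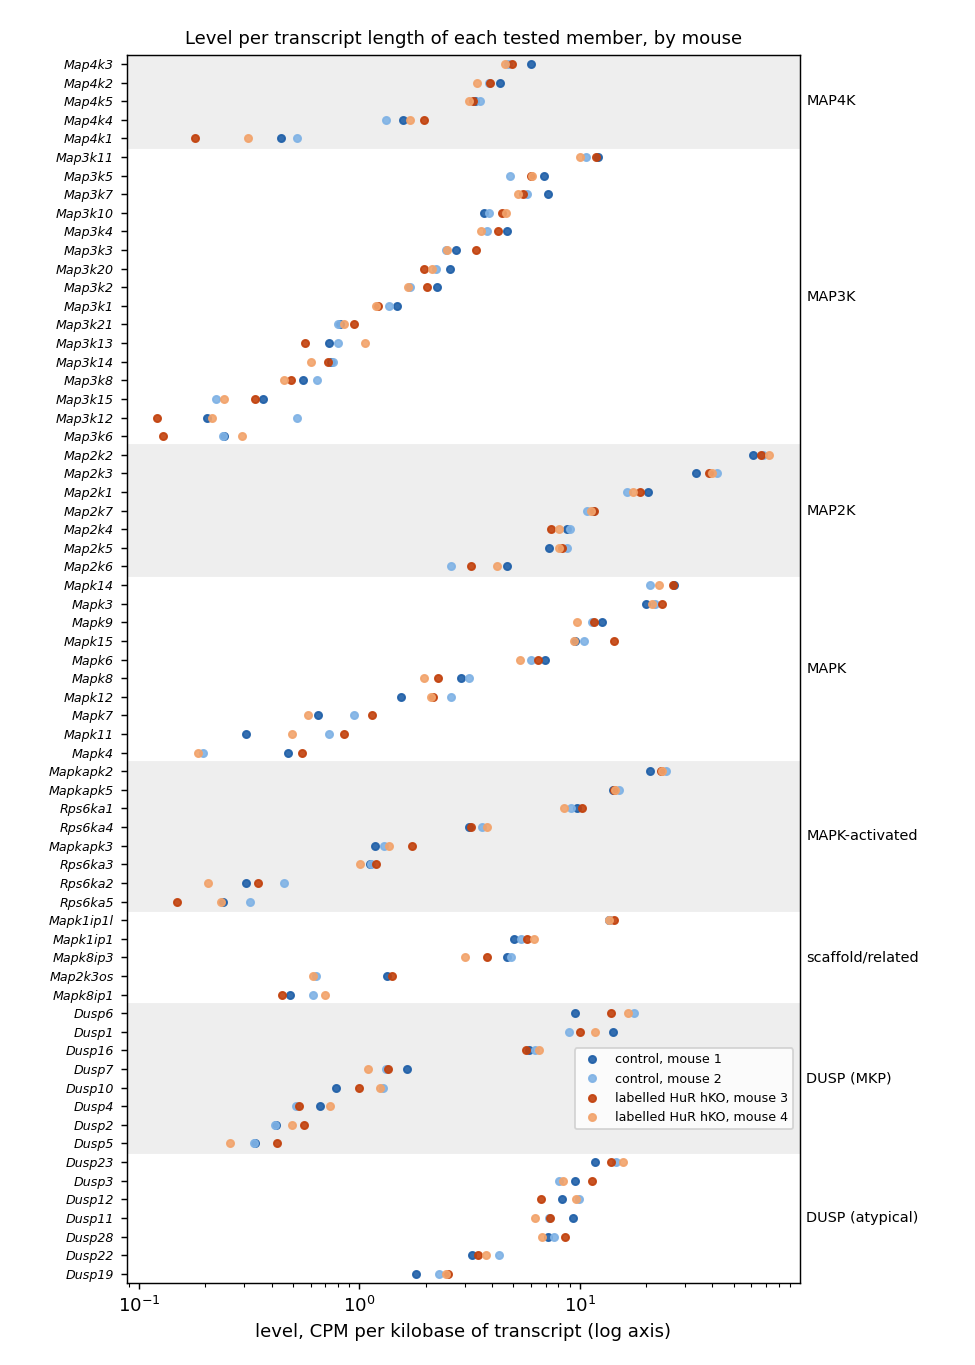
Level of 66 of the 67 tested members in the 4 livers, in CPM per kilobase of transcript on a log axis, grouped by tier, with 1 point per mouse. Map2k2 is the highest (mean 66.9), and the points of 1 gene mostly lie close together, with wider scatter for the genes of lowest level.

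At the entry of the cascade, the MAP4Ks, all 5 members were tested with 4 fitted values below and 1 above 0, and the median log2 fold change was -0.17. Map4k4 (HGK), a stress-responsive kinase that acts upstream of JNK, was at 9.11 and 7.62 CPM in control livers and at 11.4 and 9.82 CPM in the libraries labelled HuR hKO. Both of the latter were above both controls, and the fitted difference of 0.34 (SE 0.192, unadjusted p = 0.115 in edgeR) did not pass the test. Map4k1 (HPK1), known from blood cells, was at 1.20 and 1.42 CPM in controls and 0.488 and 0.849 CPM in the others, which are 7 to 19 counts in each library. Its fitted fold change of -0.93 was one of the largest of the family, with an SE of 0.4996 and an unadjusted p of 0.0976 in edgeR. Map4k3 and Map4k2, the MAP4Ks with the highest level per length, had fitted values of -0.18 and -0.17.

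Of the 18 MAP3Ks, 16 were tested, 5 fitted above 0 and 11 below 0 at a median of -0.11, and 0 had an unadjusted p under 0.05. Map3k7 (TAK1), which links cytokine and TGF beta receptors to JNK, p38 and NF-kB, was at 41.2 and 33.3 CPM in controls and 32.0 and 30.3 CPM in the libraries labelled HuR hKO. Both of the latter lay below both controls, but control mouse 2 was closer to mice 3 and 4 than to control mouse 1, and the fitted value of -0.26 (SE 0.149, unadjusted p = 0.117 in edgeR) did not pass. Map3k5 (ASK1), activated by oxidative stress, was at 37.5 and 26.4 CPM in controls and 32.9 and 33.1 CPM in the others, so that the control livers lay on either side. Map3k1 (MEKK1) was at 10.3 and 9.48 CPM against 8.51 and 8.28 CPM, a fitted difference of -0.24 (SE 0.178). Map3k11 had 47.1 and 41.8 CPM against 46.3 and 39.2 CPM, overlapping ranges with a fitted value of -0.06.

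Map3k12 (DLK), best known from neurons, had the most negative fitted value of all members. It was at 1.05 and 2.69 CPM in controls and 0.628 and 1.11 CPM in the libraries labelled HuR hKO, which come from 9 to 36 counts. The groups overlapped, and the fitted value of -1.07 (SE 0.561, unadjusted p = 0.0924 in edgeR) rested on control mouse 2, without which it was -0.24. Its exons overlap those of Pcbp2, which was far more abundant at 136 to 167 CPM, so reads near the overlap could belong to either gene.

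Among the MAP2Ks all 7 members were tested and the fitted values ran from -0.20 to 0.10, the narrowest range of any tier. Map2k2 was at 147 and 163 CPM in controls and 160 and 173 CPM in the libraries labelled HuR hKO, and its partner Map2k1 (MEK1) at 49.4 and 40.1 against 45.9 and 42.4 CPM. For both genes the groups overlapped. Map2k3 was at 73.8 and 92.1 against 84.3 and 87.2 CPM, and the other p38 activator, Map2k6 (MKK6), at 9.78 and 5.45 against 6.70 and 8.76 CPM. Both control livers enclosed the other livers here, with Map2k6 differing 1.795-fold between the control mice. Map2k4 (MKK4) was the only member of the tier whose groups did not overlap, at 32.4 and 33.3 CPM in controls and 27.4 and 29.7 CPM in the others, with a fitted value of -0.20 (SE 0.130, unadjusted p = 0.161 in edgeR). Map2k7 (MKK7), which like MKK4 activates JNK, was even across livers at 40.5 and 38.2 against 40.7 and 39.8 CPM.

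Of the 13 MAP kinases themselves, 11 were tested, 7 fitted above 0 and 4 below 0 at a median of 0.05. Mapk3 (ERK1) was at 35.97 and 39.3 CPM in controls and 42.3 and 38.2 CPM in the libraries labelled HuR hKO, with overlapping groups and a fitted value of 0.10 (SE 0.135). Mapk14 was at 96.6 and 75.2 against 94.8 and 82.5 CPM, with overlapping groups and a fitted value of 0.05. It held 91.7% to 95.6% of all counts of the 4 p38 genes in each library. Mapk7 (ERK5) was at 2.11 and 3.06 CPM in controls and 3.70 and 1.91 CPM in the others, a 1.93-fold spread within the libraries labelled HuR hKO beside a fitted difference between the groups of 0.10 (SE 0.405).

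Mapk8 (JNK1, chromosome 14, 33377898 to 33447158, minus strand) was one of the 2 members that passed the unadjusted threshold. It was at 16.6 and 18.1 CPM in the control livers and at 13.05 and 11.3 CPM in the libraries labelled HuR hKO, from 187 to 243 counts. Both control livers lay above both others, the means being 17.4 ± 1.07 and 12.2 ± 1.27 CPM (SD, n = 2 each). The fitted difference was -0.52 on the log2 scale (SE 0.160, unadjusted p = 0.0116 and adjusted p = 0.510 in edgeR's quasi-likelihood test). The other JNK gene of liver, Mapk9 (JNK2), was more abundant at 58.9 and 53.1 CPM in controls and 54.5 and 45.4 CPM in the others, with overlapping groups and a fitted value of -0.16 (SE 0.144). Mapk10 (JNK3), known from neurons, had 1 count in the 4 libraries together.

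The balance of the JNK genes was read from their counts alone, which does not depend on how libraries are scaled. Mapk8 made up 22.0% (exact 95% binomial interval 19.5% to 24.7%) and 25.5% (22.7% to 28.4%) of the Mapk8 and Mapk9 counts in the control livers. In the libraries labelled HuR hKO the share was 19.3% (16.9% to 21.9%) and 19.9% (17.5% to 22.4%). Both shares were below both control shares, but the interval of control mouse 1 overlaps those of mice 3 and 4. With 2 mice a group an exact permutation test cannot give a two-sided p below 0.333. Intervals cover counting error only. The share of Map2k4 in the Map2k4 and Map2k7 counts showed the same order, at 44.4% and 46.6% in controls and 40.2% and 42.7% in the others, with intervals of 41.3% to 47.6% and 40.0% to 45.5% for mice 1 and 4 that overlap.

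Mapk8ip3 (JIP3, a scaffold that binds JNK and its activators and links cargo to kinesin; chromosome 17, 24892153 to 24936977, minus strand) was the other member past the unadjusted threshold. It was at 26.3 and 27.2 CPM in control livers and at 21.3 and 16.8 CPM in the libraries labelled HuR hKO, so that the groups did not overlap. The fitted difference was -0.49 (SE 0.157, unadjusted p = 0.0136 and adjusted p = 0.526 in edgeR's quasi-likelihood test). Annotated exons of Mapk8ip3 overlap those of Eme2 on the same strand and of Mrps34 and Nme3 on the opposite strand, and the strand setting of the counting is not given in the sources used here. Those 3 neighbours had fitted values above 0: 0.32 for Eme2, 0.38 for Mrps34 and 0.51 for Nme3. The part of shared reads in these values was not tested.

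Over the JNK branch as listed (Mapk8, Mapk9, Mapk10, Map2k4, Map2k7 and the 3 JIP scaffolds), 6 of 8 genes were tested, 4 were fitted lower and 2 higher, and the median was -0.18. The summed level was 176 and 172 CPM in control livers and 159 and 145 CPM in the libraries labelled HuR hKO. The p38 branch had 8 tested genes with a median of 0.05, and the ERK branch 7 with a median of -0.02. The JNK list includes Mapk8 and Mapk8ip3, already named for their p-values. Of its other tested genes, Mapk9 (-0.16) and Map2k4 (-0.20) were fitted lower, and Map2k7 (0.03) and Mapk8ip1 (0.07) higher. The lists also differ in kind, since the JNK list holds scaffolds and the p38 and ERK lists hold MAPK-activated kinases. These branch values are descriptions, and the difference between branches was not tested. Neither Mapk8 nor Mapk8ip3 holds TATTTAT in its 3′ UTR, although that of Mapk8, with 4410 bases, holds 7 copies of the shorter ATTTA. Without mouse 4, and with no scaling for library size, neither gene had an unadjusted p under 0.05, while both did in the other 11 alternatives tried. Without mouse 4 the fitted values were -0.41 for Mapk8 and -0.33 for Mapk8ip3.

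**Figure D3:**
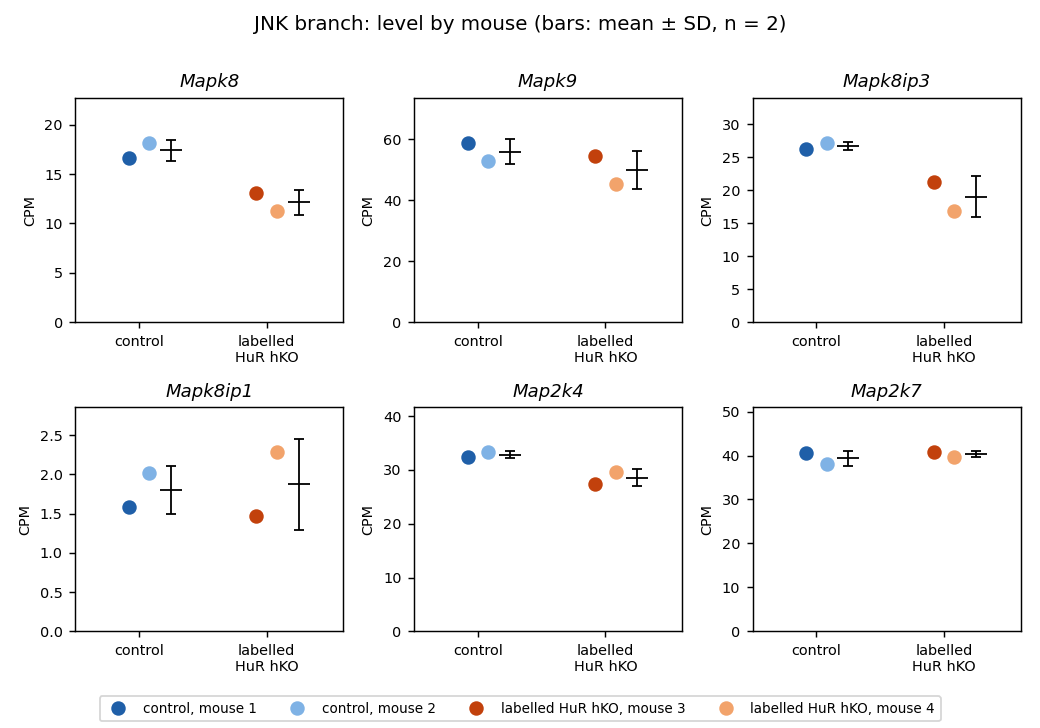
Level in CPM (axes from 0) of 6 genes of the JNK branch in each liver, with 1 point per mouse and the mean ± SD of 2 mice beside the points. Mapk8 (13.05 and 11.3 against 16.6 and 18.1), Mapk8ip3 and Map2k4 lie lower in both libraries labelled HuR hKO, while Mapk9, Mapk8ip1 and Map2k7 overlap between the groups.

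Downstream of the MAP kinases, 8 of 9 MAPK-activated kinases were tested, 3 fitted above 0 and 5 below 0 at a median of -0.02. Mapkapk2, the p38 target kinase that stabilises cytokine messages, was at 59.5 and 70.0 CPM in controls and 66.8 and 67.2 CPM in the libraries labelled HuR hKO. Mapkapk5 (MK5) was at 31.7 and 33.8 against 31.8 and 32.2 CPM. Both control livers lay on either side of the others for each gene. Of the ribosomal S6 kinases that ERK activates, Rps6ka1 (RSK1) was at 30.5 and 28.7 against 32.2 and 26.7 CPM, with a fitted value of -0.01. Rps6ka3 (RSK2) was at 8.05 and 8.21 against 8.58 and 7.27 CPM, again with overlapping groups. The tested genes of lowest level in this tier, Rps6ka2 and Rps6ka5, had fitted values of -0.48 and -0.52 with standard errors of 0.429 and 0.445.

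Besides Mapk8ip3, the scaffold and related group held 4 tested genes. Mapk1ip1l was almost constant, at 61.9 and 61.4 CPM in controls and 64.7 and 61.8 CPM in the libraries labelled HuR hKO. Mapk1ip1 was at 9.48 and 10.2 against 10.8 and 11.6 CPM, with a fitted value of 0.19 (SE 0.170) that did not pass. Mapk8ip1 (JIP1) was low, at 1.47 to 2.28 CPM, and Map2k3os, a noncoding gene opposite Map2k3, was at 0.796 to 1.81 CPM.

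Of the 10 DUSPs of the MAP kinase phosphatase group, 8 were tested, 6 fitted above 0 and 2 below 0 at a median of 0.07, and 0 had an unadjusted p under 0.05. Dusp1 (MKP-1), an immediate early gene that shuts off p38 and JNK in the nucleus and whose 3 AU-rich sites are printed above, was at 28.3 and 17.8 CPM in controls and 20.0 and 23.3 CPM in the libraries labelled HuR hKO. The control livers enclosed the others, and the fitted value was -0.09 (SE 0.218, unadjusted p = 0.696 in edgeR). Left out in turn, single mice moved it from -0.38 to 0.27. Its exons overlap those of Ergic1 on the opposite strand, which was at 64.2 to 78.0 CPM.

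Dusp6 (MKP-3), a feedback phosphatase induced by ERK, was at 26.7 and 49.3 CPM in controls and 38.9 and 46.3 CPM in the libraries labelled HuR hKO. Here too the control livers were the extremes, 1.85-fold apart, in the reverse order of Dusp1. Dusp1 accounted for 51.4% and 26.5% of the Dusp1 and Dusp6 counts in control mice 1 and 2, and for 33.9% and 33.5% in the others. Without control mouse 1 the fitted value of Dusp6 was -0.22, and without control mouse 2 it was 0.68. Dusp4 (MKP-2) was at 1.81 and 1.42 against 1.47 and 2.02 CPM, from 19 to 38 counts. Dusp16 (MKP-7), which acts on JNK and p38, was even at 30.0 and 31.8 against 29.0 and 33.4 CPM.

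**Figure D4:**
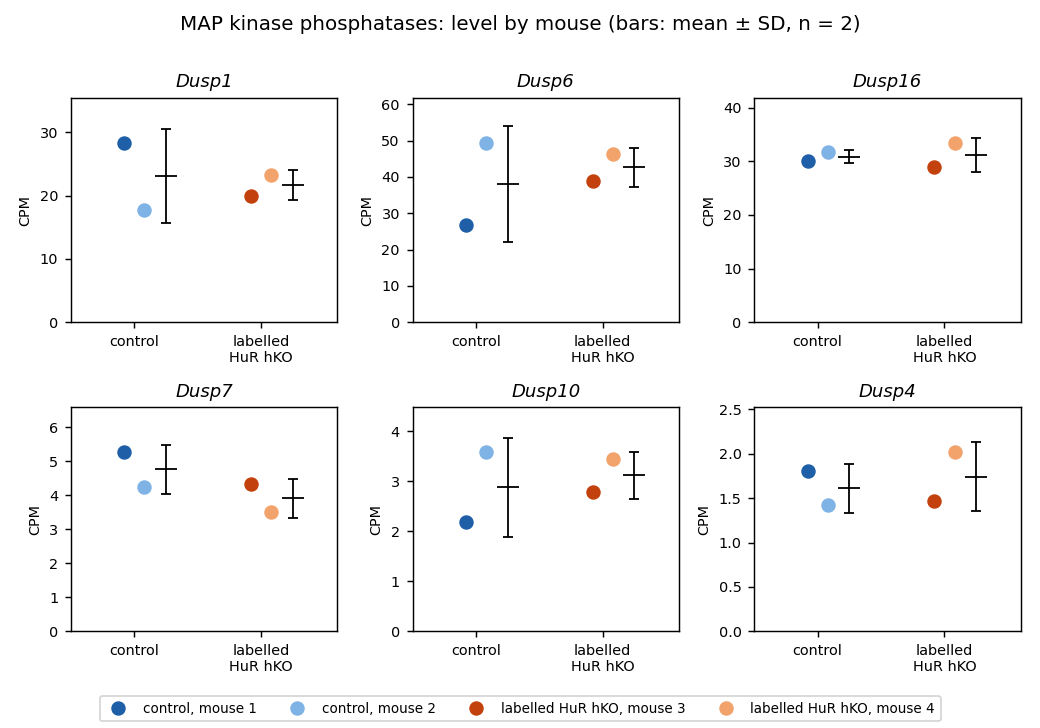
Level in CPM (axes from 0) of 6 MAP kinase phosphatases in each liver, with 1 point per mouse and the mean ± SD of 2 mice beside the points. The groups overlap for each gene, and for Dusp1 (28.3 and 17.8) and Dusp6 (26.7 and 49.3) the control mice are the highest and the lowest of the 4 livers.

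Of the 14 atypical DUSPs, 7 were tested, 4 fitted above 0 and 3 below 0 at a median of 0.04. Dusp23 was at 16.5 and 20.7 CPM in controls and 19.6 and 22.1 CPM in the libraries labelled HuR hKO. Dusp3 (VHR), which acts on ERK and JNK, was at 42.1 and 35.8 against 50.3 and 37.3 CPM, with a fitted value of 0.17 (SE 0.175). For both genes the groups overlapped. Dusp11, an RNA phosphatase with 4 TATTTAT matches, was at 60.0 and 46.5 against 47.2 and 40.5 CPM.

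The 16 members that were not tested were 9 DUSPs (Dusp8, Dusp9, Dusp13, Dusp14, Dusp15, Dusp18, Dusp21, Dusp26 and Dusp27), Map3k9, Map3k19, Map3k7cl, Mapk10, Mapk13, Mapk8ip2 and Rps6ka6. Of these Dusp15, Dusp21 and Dusp27 had 0 counts in all 4 libraries. The most abundant was Dusp8, known from brain and heart, at 0.299 to 1.12 CPM. Mapk13 (p38 delta), known from epithelia, had 12 and 4 counts in the controls and 4 and 11 in the others.

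Members with an AU-rich match were compared with those without. The 19 tested members with TATTTAT had a median log2 fold change of -0.10, 7 above and 12 below 0, and the 47 without it 0.03, 27 above and 20 below. Over all tested genes the medians were -0.05 for the 3561 with the motif and 0.02 for the 8382 without, the same order as in the members. Genes with the motif also have longer 3′ UTRs, with medians of 2435 and 1111 bases in members and 2158 and 860 bases in all genes, and the part of UTR length was not tested. With no scaling for library size all 4 medians lay above 0 (0.21 and 0.34 in members, 0.26 and 0.34 in all genes), since that setting moved the median of all genes to 0.31.

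The other genes of the pathway, on a list of 138 receptors, adaptors, GTPases, Raf kinases, scaffolds, inhibitors and nuclear targets, were counted in the same way. Of 123 tested, 62 had fitted values above and 61 below 0 at a median of 0.00, and 6 (4.88%) had an unadjusted p under 0.05, beside 7.43% of all genes. In edgeR's quasi-likelihood test their adjusted p ran from 0.315 to 0.641. Lower was Ywhaz (14-3-3 zeta, which binds phosphorylated Raf), at 100.02 and 99.97 CPM in controls and 72.5 and 63.7 CPM in the libraries labelled HuR hKO, a fitted value of -0.55 (SE 0.130). Higher were 5 genes. Mknk2 (MNK2, a kinase that ERK and p38 activate and that phosphorylates eIF4E) was at 150 and 146 against 191 and 241 CPM, a fitted value of 0.54 (SE 0.150). Klb (beta-Klotho, the FGF21 and FGF15 co-receptor of hepatocytes) was at 15.8 and 13.7 against 20.4 and 23.5 CPM, a value of 0.58 (SE 0.157). Pea15a, which holds ERK in the cytoplasm, had a fitted value of 0.47, the receptor signalling inhibitor Spry1 0.63, and the AP-1 subunit Junb 0.42. For each of these 6 genes, named for their p-values, the groups did not overlap. That held for 35.0% of the tested pathway genes and 38.1% of all tested genes.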

How the data were processed

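The deposited table held whole-number counts per Ensembl gene for 4 libraries, made by the authors. The submitters' processing notes name GRCm38 and RSEM without saying what each was used for, so the counts may be rounded estimates, and the aligner and strand setting are not given in the sources used here. All 4 value columns were matched to samples by the mouse number in the labels (0 were left over). A symbol was found for 46005 of 46603 identifiers, and GENCODE M21 coordinates for 46091.

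Genes were kept with edgeR's filterByExpr (minimum count 10, minimum total 15), libraries were scaled by TMM, and groups were compared by edgeR 4.0.16's quasi-likelihood test (R 4.3.3), with Benjamini-Hochberg adjustment over all 13001 genes. The fit was tested on simulated data. Of genes changed 2-fold there, 67.9% had an adjusted p under 0.05 in the quasi-likelihood test, and of those changed 4-fold 96.7%. Smaller changes were not simulated. CPM are counts scaled to 1000000 of the TMM-scaled library size, and levels per kilobase use the longest protein-coding transcript. Fold changes have the direction HuR hKO minus control. Each library is 1 mouse, so p-values rest on the spread between 2 mice a group, which the fit moderates with that of all tested genes. Standard errors were computed from the fitted fold change and the F statistic of the quasi-likelihood test. Members, tiers and gene lists were chosen with earlier results of these data known. Named members were a list of core genes, those with an unadjusted p under 0.05 or a fitted fold of at least 1.8, and the 2 with the highest level per kilobase in each tier. Members outside this rule, such as Dusp8, Dusp11 and Dusp16, were named after their values were seen. Alternatives were other scaling factors, other filters, DESeq2 1.42.0, edgeR's exact test, limma-voom (limma 3.58.1), a robust fit and leaving out each mouse. Cell type lists of 4 to 10 genes were checked for hepatocytes, Kupffer cells, B cells, T and NK cells, neutrophils, monocytes with macrophages, red cells, stellate cells, endothelium, cholangiocytes and mesothelium. An unadjusted p under 0.05 was found for 0 of 8 tested Kupffer cell, 0 of 8 endothelial and 0 of 6 B cell genes, and the neutrophil (1 of 8 genes tested), T and NK cell (1 of 9) and mesothelial (2 of 4) lists had too few tested genes to be read. Protein sequences were not used here, and the values of 1 tested member are not reported here.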

Additional observations from a re-analysis of the deposited data

How the results depend on the processing

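With 2 mice a group, leaving out 1 mouse left an arm with a single library, which the pooled fit assumes to vary like the other libraries. No paired analysis was possible because the groups share no replicate number. Under 13 alternatives, the log2 fold changes of 16 of 39 named genes kept their sign and those of 23 changed it in 38 of 505 values. Of these changes 12 came with no scaling for library size, 6 to 8 with each mouse left out, and 0 under the other alternatives. The cause was not tested.

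Members with an unadjusted p under 0.05 numbered 1 to 5 with single mice left out: 1 without HuR hKO mouse 4 (Mapk15), and 5 without control mouse 2 (Dusp6 higher, and Dusp11, Map3k7, Mapk8 and Mapk8ip3 lower). With no scaling they numbered 2, both higher (Map3k10 and Map4k4). Members that also reached a fold of 1.8 numbered 1 with no filter on low counts (Map3k12), and 0 to 1 with single mice left out. Other pathway genes with an unadjusted p under 0.05 numbered 3 in DESeq2's Wald test, 11 with no filter, and 4 to 19 with single mice left out, the most without control mouse 2. Members with an adjusted p under 0.05 numbered 0 under every alternative run.

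With no scaling for library size the median of all genes moved to 0.31, 60 members were fitted higher and 7 lower, and the median log2 fold change was 0.29 for members, 0.14 for MAP4Ks, 0.19 for MAP3Ks, 0.35 for MAP2Ks, 0.35 for MAP kinases, 0.29 for MAPK-activated kinases, 0.35 for scaffolds, 0.39 for MAP kinase phosphatases and 0.34 for atypical DUSPs. Relative to the 0.31 of all genes the medians of members, MAP4Ks, MAP3Ks and MAPK-activated kinases were lower. With no filter the atypical DUSP median was -0.072. The MAP2K median was 0.029 with DESeq2's Wald test and 0.029 with its size factors, 0.023 with 10 counts required in every sample, 0.037 with limma-voom, 0.020 with no filter and 0.022 with upper quartile factors. Single mice left out gave medians of -0.077 to 0.022 for members, -0.25 to -0.067 for MAP4Ks, -0.26 to 0.021 for MAP3Ks, -0.0069 to 0.037 for MAP2Ks, -0.12 to 0.10 for MAP kinases, -0.10 to 0.0020 for MAPK-activated kinases, -0.012 to 0.071 for scaffolds, -0.047 to 0.16 for MAP kinase phosphatases and -0.016 to 0.087 for atypical DUSPs.

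Signs of single genes that changed with no scaling were those of Dusp1 (0.24), Map2k1 (0.29), Map2k4 (0.12), Map3k1 (0.074), Map3k11 (0.24), Map3k7 (0.049), Map4k2 (0.14), Map4k3 (0.13), Mapk9 (0.13), Mapkapk5 (0.28), Rps6ka1 (0.29) and Rps6ka3 (0.26). With single mice left out, ranges that crossed 0 were -0.38 to 0.27 for Dusp1, -0.077 to 0.37 for Dusp3, -0.14 to 0.31 for Dusp4, -0.22 to 0.68 for Dusp6, -0.16 to 0.13 for Map2k1, -0.11 to 0.22 for Map2k3, -0.33 to 0.50 for Map2k6, -0.0069 to 0.064 for Map2k7 and -0.20 to 0.060 for Map3k11. Further such ranges were -0.18 to 0.31 for Map3k5, -0.12 to 0.22 for Mapk14, -0.012 to 0.071 for Mapk1ip1l, -0.45 to 0.52 for Mapk7, -0.075 to 0.17 for Mapkapk2, -0.093 to 0.016 for Mapkapk5, -0.16 to 0.12 for Rps6ka1 and -0.18 to 0.078 for Rps6ka3.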
